A study of Mus musculus with 6 samples.

Results

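The cells described here are Myog-positive muscle cells of embryonic mouse skin, 1004 of the 40653 cells kept from 6 single-cell libraries. Each kept cell had at least 500 detected genes and at most 10% of its unique molecular identifiers (UMIs, one per captured transcript) from mitochondrial genes. A kept cell was counted as Myog-positive muscle when it held at least 2 UMIs of Myog and at least 10 of Actc1, at most 3 UMIs of the keratins Krt5 and Krt14 together, and 0 UMIs of the endothelial genes Pecam1 and Cdh5. Myog and Actc1 therefore chose the cells, and their levels are given below as a description only. The same holds for every comparison of these cells with other cells, since all genes of a cell follow from choosing it.

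The study profiled whole dorsolateral and flank skin of CD1 mouse embryos at embryonic day (E) 13.5 and E14.5, in wild type and after loss of beta-catenin. Skin of 3 to 4 embryos was pooled for each library, dissociated with trypsin, sorted for live cells by exclusion of DAPI, and run on the 10x Genomics 3' version 2 chemistry. There were 2 control libraries at E13.5 (genotype given as WT), 2 control libraries at E14.5 (also WT), 1 loss-of-function (LOF) library at E13.5 and 1 at E14.5. The LOF embryos carried PDGFRalphaCreER(Lo), beta-catfl/fl and mTmG. The CreER driver places recombination in cells that express Pdgfra, which in skin are mainly dermal fibroblasts, and mTmG is a reporter that switches from tdTomato to GFP on recombination. The treatment text gives a single oral dose of tamoxifen at E11.5, at 30 and 15 µg per g body weight, without tying a dose to a library, and the same text is attached to the WT libraries. Each library is a pool of embryos, and nothing in the labels says whether libraries of a stage came from separate litters, so p-values measure the spread between these libraries.

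Skeletal muscle of the trunk forms from precursors marked by the transcription factors Pax3 and Pax7. The basic helix-loop-helix factors Myf5 and MyoD commit these cells to the muscle lineage, and myogenin (Myog) then drives terminal differentiation. Differentiating myocytes leave the cell cycle through p21 and p57, fuse into multinucleated fibres with the membrane proteins myomaker and myomixer, and build sarcomeres from actin, myosin, troponins and titin. In the skin of the flank such cells lie below the dermis, and a dissection of skin can carry more or less of this layer.

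The libraries held 53461986 to 86446575 UMIs in 6096 to 9152 barcodes each, and the Myog-positive cells of a library summed to between 1108551 and 4794363 UMIs. Pairs of libraries shared 45 to 103 barcodes, which was 0.731% to 1.46% of the smaller library. A pair of libraries stood apart in the Myog-positive cells, E14.5 control replicate 1 and the E14.5 LOF library. Their level of the histone gene Hist1h1b was 724 and 910 UMIs per 1000000 of the summed UMIs (CPM), against 20.7 to 28.9 CPM in the other 4. They also held 2024 and 2701 CPM of Ttn against 224 to 336 CPM, and 1907 and 1966 CPM of Igf2 against 178 to 314 CPM. The same pair stood apart in Pax7-positive progenitors, so this was not particular to the Myog-positive cells. There the 20 genes of the Z disc, M band and titin summed to 186 and 240 CPM against 21.7 to 46.7 CPM. The 15 fetal growth and imprinted genes summed to 10860 and 10967 CPM against 6386 to 7869 CPM. The E13.5 LOF library was high in globin transcripts, with 1254 CPM summed over 6 globin genes in the Myog-positive cells against 21.3 to 315 CPM elsewhere. E14.5 control replicate 2 was the smallest sample and had the most fibroblast and macrophage transcripts, with 181 CPM of Lum against 17.7 to 48.4 CPM in the other libraries. Counts of changed genes, and the list medians between stages and genotypes, are also given without single libraries.

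Markers of other skin cells were low in the Myog-positive sums, with fibroblast markers the highest. The 5 endothelial markers summed to 0 to 2.06 CPM, with Pecam1 and Cdh5 at 0 by the rule. The 5 macrophage markers summed to 4.38 to 53.2 CPM, the 5 keratinocyte markers to 22.4 to 87.5 CPM against 3567 to 5438 CPM in keratinocytes, and the 7 fibroblast markers to 394 to 964 CPM against 6615 to 19205 CPM in fibroblasts. Of the 5 Schwann cell markers the sum was 21.2 to 43.5 CPM, most of it Erbb3 at 17.9 to 36.0 CPM, while the defining factor Sox10 stood at 0 to 1.54 CPM. The smooth muscle gene Myh11 and the cartilage gene Acan had 0 UMIs. In each library 13.3% to 54.3% of the Myog-positive cells held at least 1 UMI of Pdgfra or Lum, and a doublet caller marked 2.90% to 8.51% of them. The part of free RNA and of doublets in the results below was not tested beyond the counts given without such cells.

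The markers named for these cells were present in all 6 libraries. Myog stood at 2376 and 2312 CPM in both E13.5 controls, 2687 and 3070 CPM in both E14.5 controls, and 2286 and 2435 CPM in the E13.5 and E14.5 LOF libraries. Actc1, cardiac alpha-actin, which embryonic skeletal muscle also makes, stood at 4728 and 4544, 3569 and 4450, and 3851 and 3491 CPM for the groups in that order. Tnnt1, the slow skeletal troponin T, was at 838 to 1257 CPM against 134 to 383 CPM in Pax7-positive progenitors. Des, the muscle intermediate filament desmin, was at 299 to 419.5 CPM against 86.0 to 218 CPM, and Cdh15, M-cadherin, at 169 to 237 CPM against 71.5 to 119 CPM. Myog lies at chromosome 1, 134289989 to 134292548 on the plus strand of GRCm38, and Actc1 at chromosome 2, 114047282 to 114053548 on the minus strand. All 5 markers lay above every progenitor library. For Myog and Actc1 the rules of both classes fix this. For the 3 markers that the rules did not use it is a description and no test of the label, since the cells were chosen first.

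The share of kept cells that were Myog-positive was 2.47% over all libraries, with an exact 95% binomial interval of 2.32% to 2.63% that covers counting error only. It was 3.16% (220 cells) and 1.97% (119 cells) in the E13.5 controls, 2.20% (138 cells) and 1.61% (94 cells) in the E14.5 controls, 3.14% (208 cells) in the E13.5 LOF library and 2.52% (225 cells) in the E14.5 LOF library. Without cells that held Pdgfra or Lum the shares were 2.04% and 1.36%, 1.69% and 0.735%, and 1.93% and 2.19% in the same order, so that E14.5 LOF in place of E13.5 control replicate 1 was the highest. The 2 controls of a stage differed as much as the stages did, and groups of 2 libraries cannot give a two-sided exact permutation p below 0.05. How much of the muscle layer the dissection took was not recorded, so dissection and stage cannot be told apart in these shares. A looser rule (Myog at least 1 and Actc1 at least 5 UMIs) took 1239 cells and a stricter one (at least 3 and at least 20) took 820. Of the 1004 cells 62 had exactly 2 UMIs of Myog, while 130 cells with enough Actc1 had 1 UMI and 504 had 0. At the other edge 78 of the 1004 had 10 to 14 UMIs of Actc1, and 67 cells that met the rest of the rule had 5 to 9. The median Myog-positive cell held 24 to 32 UMIs of Myog and 34 to 75 of Actc1, depending on the library.

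The myogenic transcription factors split into those above and those below their level in progenitors. The comparison class was 760 progenitors, cells with at least 1 UMI of Pax7, 0 of Myog and under 10 of Actc1. Of the 19 factors listed, 8 were higher in every Myog-positive library than in every progenitor library and 4 were lower in every one. Over all 17471 genes detected in either class these shares were 3.22% and 4.58%. Myod1, the factor that commits cells to muscle, stood at 594 and 624 CPM in both E13.5 controls, 402 and 503 CPM in both E14.5 controls, and 599 and 407 CPM in the LOF libraries, against 51.6 to 124 CPM in progenitors. Hes6, which promotes differentiation by opposing Hes1, stood at 431.5 and 395, 207 and 216.5, and 392.5 and 200.5 CPM, with E13.5 libraries of both genotypes above all E14.5 libraries. Mef2c, the partner of myogenin at muscle genes, ran the other way at 148.5 and 104.5, 277 and 209, and 126 and 351.5 CPM.

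Progenitor factors were low in the same cells. Pax7 was at 9.92 to 32.5 CPM against 113 to 274 CPM in progenitors, a difference that the progenitor rule itself creates. Msc (musculin), a repressor of MyoD activity that the rule did not use, was at 34.7 to 143 CPM against 320 to 772 CPM. Myf5, the earliest of the myogenic helix-loop-helix factors, was at 4.5 to 16.5 CPM. To compare single cells at equal depth, every cell was thinned to 3000 UMIs. Myod1 was then detected in 64.9% to 81.9% of the Myog-positive cells and Pax7 in 3.19% to 8.44% (10.6% to 27.4% without thinning), against at most 0.165% of keratinocytes, which do not express Pax7. Keratinocytes had a median of 11443.5 to 17917 UMIs before thinning and Myog-positive cells 11225 to 21337.

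Genes of the fusion proteins were high in the Myog-positive cells and near 0 in progenitors. Tmem8c, which encodes myomaker (now named Mymk), stood at 309 and 268 CPM in both E13.5 controls, 245 and 310.3 CPM in both E14.5 controls, and 263 and 262 CPM in the LOF libraries. Progenitors held 0 to 0.866 CPM of it. Gm7325, which encodes myomixer (now Mymx), stood at 318.5 and 419, 401 and 583, and 333 and 381.5 CPM, against 0 to 4.67 CPM in progenitors. For both genes the ranges of the stages and of the genotypes overlapped. At 3000 UMIs a cell, Tmem8c was detected in 38.0% to 50% of Myog-positive cells, in 0 progenitors and in at most 0.130% of keratinocytes. Gm7325 was detected in 45.2% to 64.9%, against at most 1.28% of progenitors and 1.22% of keratinocytes. Of the 17 fusion and adhesion genes listed, 5 were above and 3 below every progenitor library.

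Genes of cell cycle exit were high. Cdkn1a (p21), the inhibitor through which MyoD stops division, stood at 304 and 268, 366 and 385, and 357 and 379 CPM, against 0 to 8.18 CPM in progenitors. At 3000 UMIs it was detected in 36.1% to 54.3% of Myog-positive cells and in at most 1.33% of progenitors. Cdkn1c (p57), an imprinted inhibitor of the same family, stood at 7356 and 6226 CPM in both E13.5 controls, 10731 and 9602 CPM in both E14.5 controls, and 7245 and 10691 CPM in the LOF libraries. Progenitors held 3018 to 4925 CPM and fibroblasts 2017 to 3571 CPM, so p57 was high in all of these classes, whereas p21 was near 0 in progenitors. Rb1, the retinoblastoma protein, was at 60.4 to 193 CPM against 3.50 to 13.8 CPM. Of the 8 exit genes listed, 4 were above every progenitor library and 0 below. Of the 22 cell cycle genes listed, 0 were above and 2 below, and their summed level was 1845 to 2849 CPM against 2569 to 4449 CPM in progenitors. Cell cycle transcripts were thus still present in the Myog-positive sums.

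Some Notch genes lay above and more lay below their progenitor level. Megf10 and the ligand Dll1 lay above every progenitor library, with Dll1 at 32.5 to 45.0 CPM against 2.91 to 8.18 CPM. The receptor Notch3 was at 3.61 to 12.6 CPM against 36.5 to 73.9 CPM, and the Notch target genes Heyl and Hey1, which hold progenitors back from differentiation, at 3.61 to 14.9 against 18.6 to 41.1 CPM and at 0.999 to 11.6 against 33.1 to 60.6 CPM. In all, 2 of the 12 Notch genes were above and 5 below every progenitor library.

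A rule on size picked genes that were high in these cells against the other classes, as a description. They had at least 20 CPM in every Myog-positive library and at least 10 times the highest level in any library of progenitors, fibroblasts or keratinocytes, after adding 1 CPM. The rule found 16 of 20940 detected genes (0.0764%): Myog, Tmem8c, Gm7325, Tnnt2, Tnni1, Klhl41, Mylpf, Chrna1, Myl1, Kcnk13, Smyd1, Tex14, Chrng, Dok7, Il17b and Tm6sf1. Most encode sarcomere proteins, chaperones of the sarcomere or parts of the neuromuscular junction. Il17b encodes a cytokine and Kcnk13 a potassium channel. RefSeq promoter windows were available for 12 of the 16 genes. Because myogenic helix-loop-helix factors bind the E-box CANNTG, with CAGCTG as a preferred form, the 250 bases before each start were searched for both on both strands. The second motif is one case of the first, and both read the same on either strand. CAGCTG was found in 8 of 15 windows (53.3%, from 7 of the 12 genes) and in 13% of all 32851 windows. CANNTG was found in 13 of 15 windows (86.7%) and in 66.2% of all windows. A match gives letters only and is no evidence of binding. The 3 windows below are shown because they belong to the factor that defines the cells, to the receptor subunit with 2 copies of CAGCTG and to a fast myosin light chain. They are the 250 bases before the RefSeq start in GRCm38.p6, 5′ to 3′ on the gene's strand, with every CANNTG in capitals: Myog at chr1:134289754-134290003 on the plus strand, Chrna1 at chr2:73580339-73580588 on the minus strand and Mylpf at chr7:127211358-127211607 on the plus strand.
Myog: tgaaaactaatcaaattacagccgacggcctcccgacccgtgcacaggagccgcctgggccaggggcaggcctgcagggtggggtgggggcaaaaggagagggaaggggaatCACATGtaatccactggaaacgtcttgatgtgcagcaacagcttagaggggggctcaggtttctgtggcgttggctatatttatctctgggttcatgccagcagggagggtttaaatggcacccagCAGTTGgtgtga
Chrna1: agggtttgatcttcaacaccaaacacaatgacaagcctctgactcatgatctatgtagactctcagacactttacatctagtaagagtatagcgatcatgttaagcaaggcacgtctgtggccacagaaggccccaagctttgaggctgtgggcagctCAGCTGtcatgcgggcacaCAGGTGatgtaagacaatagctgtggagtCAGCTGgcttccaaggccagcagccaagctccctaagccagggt
Mylpf: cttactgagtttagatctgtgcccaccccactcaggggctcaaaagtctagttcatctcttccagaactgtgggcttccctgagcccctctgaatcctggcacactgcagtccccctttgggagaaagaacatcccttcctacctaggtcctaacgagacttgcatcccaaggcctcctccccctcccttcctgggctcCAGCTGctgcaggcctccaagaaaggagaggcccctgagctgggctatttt
In the Myog window CACATG lay at -138 to -133 and CAGTTG at -12 to -7 from the start, and the last 15 bases of the window are exon in the GENCODE annotation, which starts the gene earlier. The Chrna1 window held CAGCTG at -92 to -87 and at -44 to -39 and CAGGTG between them. In the Mylpf window 1 CAGCTG lay at -51 to -46.

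Sarcomere genes were switched on, though unevenly. In summed CPM the 16 thin filament genes reached 5693 to 7938 against 898 to 1580 in progenitors, and 11 of them lay above every progenitor library. The 12 thick filament genes summed to 938 to 2083 against 66.7 to 121, with 5 above, and the 20 genes of the Z disc, M band and titin summed to 425 to 3271 against 21.7 to 240, with 11 above. In these lists 0 genes lay below every progenitor library. The spread of the Z disc sum came largely from Ttn in E14.5 control replicate 1 and the E14.5 LOF library; in the other 4 libraries Ttn was at 224 to 336 CPM. Tnnt2, the cardiac and embryonic troponin T, stood at 593 and 490.3 CPM in both E13.5 controls, 1101 and 1211 CPM in both E14.5 controls, and 644.5 and 1317 CPM in the LOF libraries, with all E14.5 libraries above all E13.5 libraries. Tnni1, slow troponin I, followed the same order at 233 and 139.8, 433 and 487, and 236 and 557 CPM. Myh3, embryonic myosin heavy chain, was at 62.4 and 42.5, 168 and 69.5, and 59.7 and 303 CPM.

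**Figure D1:**
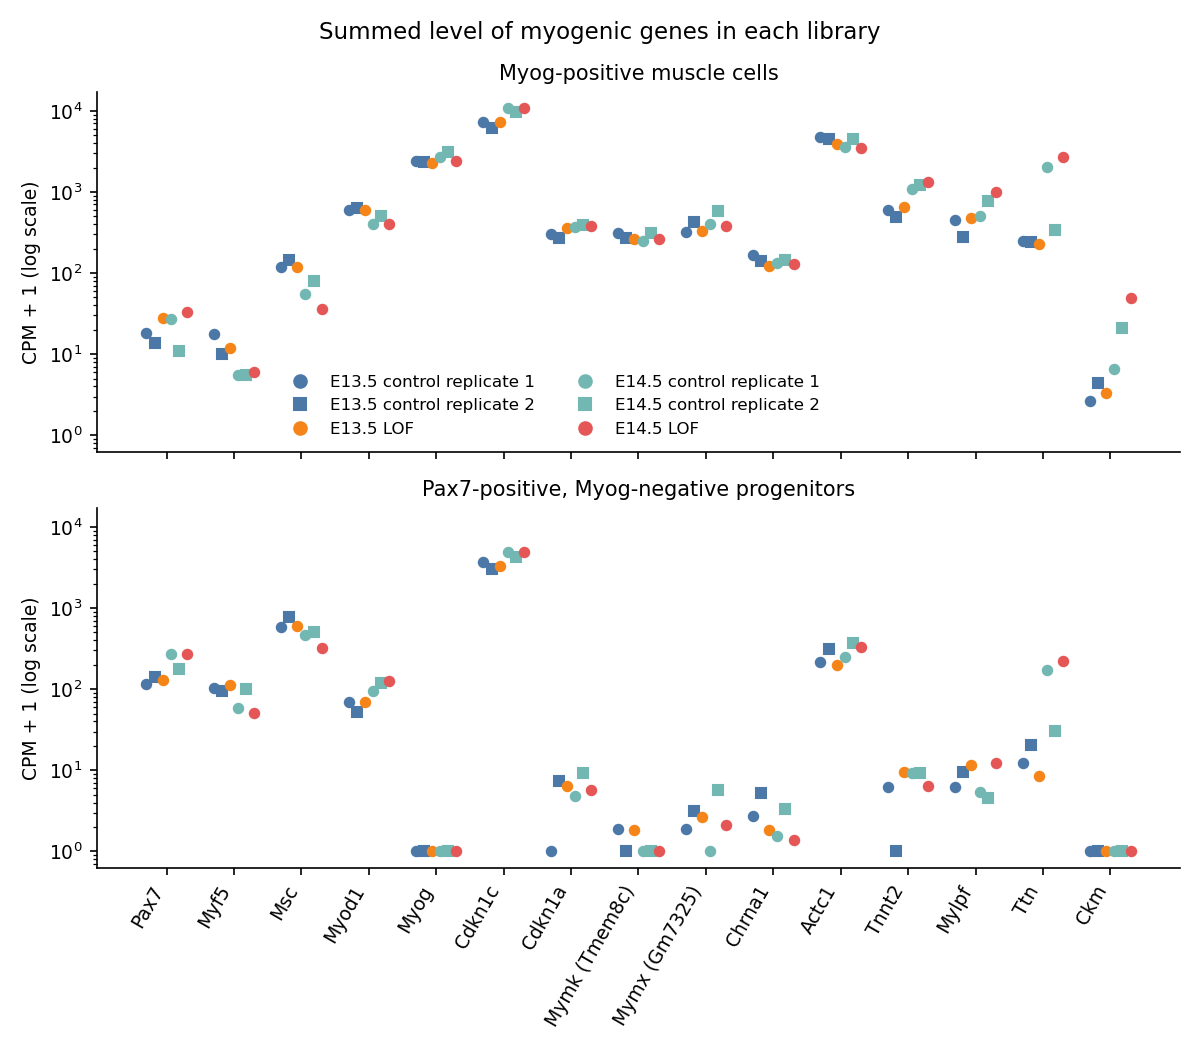
Levels of 15 genes in Myog-positive muscle cells (upper panel) and in Pax7-positive progenitors (lower panel), as CPM + 1 on a log axis, with 1 point per library, colours for the groups and squares for replicate 2 of the controls. Tmem8c, Gm7325 and Cdkn1a lie above their progenitor levels in all 6 libraries, Msc lies below, and Ttn stands apart in E14.5 control replicate 1 and the E14.5 LOF library.

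Several genes of muscle fibres were low or at 0, while other sarcomere genes were not. The fast light chain Mylpf averaged 581 CPM over the 6 libraries and Myl1 298 CPM. Ckm, muscle creatine kinase, was at 1.67 and 3.35 CPM in both E13.5 controls, 5.49 and 19.8 CPM in both E14.5 controls, and 2.32 and 47.7 CPM in the LOF libraries. Myh7, slow myosin heavy chain, was at 0 to 3.13 CPM and the neonatal form Myh8 at 1.68 to 41.2 CPM. Mybpc2 (fast myosin binding protein C), Chrne (the adult subunit of the acetylcholine receptor), Pln (phospholamban) and Ckmt2 (mitochondrial creatine kinase) had 0 UMIs in all 1004 cells, which allows up to 0.184 CPM over their 16346827 UMIs. The embryonic receptor subunits were present. Chrna1, the subunit that binds acetylcholine, stood at 165 and 141, 133 and 142.5, and 119.7 and 128 CPM, and Chrng, the embryonic subunit that Chrne later replaces, at 58.4 and 52.0, 25.5 and 46.0, and 32.4 and 34.3 CPM. Of the 29 excitation and calcium genes listed, 16 lay above every progenitor library and 0 below. Ryr1, the calcium release channel, was at 22.5 to 82.4 CPM and Stac3, which couples it to the membrane, at 17.3 to 66.5 CPM.

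The Myog-positive cells were not uniform, and their cell cycle transcripts split them. At 3000 UMIs a cell, 64.5% and 65.5% of cells in the E13.5 controls, 51.4% and 42.6% in the E14.5 controls, and 53.4% and 49.3% in the LOF libraries held at least 3 UMIs of the 22 cell cycle genes. Another 14.5% and 12.6%, 23.9% and 31.9%, and 19.2% and 26.2% held 0. Among progenitors 72.7% to 89.7% held at least 3. The split was chosen after these data had been seen, and the classes are ranges of a count and not cell types, with 20.9% to 27.4% of cells between them. UMIs of cell cycle genes do not by themselves show that a cell was dividing. Ratios below are means over the 6 libraries of log2 CPM (+10) in the high over the 0 class, described without a test.

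Fusion and sarcomere transcripts were concentrated in the cells with 0 cell cycle UMIs. Tmem8c averaged 569 ± 165 CPM (SD, n = 6) in that class and 134 ± 42.0 CPM in the high class, a log2 ratio of -2.0 ± 0.41 (SD, n = 6). Gm7325 averaged 859 ± 193 and 204 ± 47.1 CPM, a ratio of -2.02 ± 0.42. At least 1 UMI of either gene was seen in 82.5% to 100% of the 0 class and in 36.0% to 45.1% of the high class, so the classes did not overlap. Of 5 summed lists the thick filament had the lowest ratio, at 4024 ± 1504 against 351 ± 52.6 CPM and a log2 ratio of -3.42 ± 0.53. The Z disc and titin list followed at -2.23 ± 0.63, excitation and calcium at -1.65 ± 0.49 and the thin filament at -1.62 ± 0.28. Mylpf, the fast light chain, had a ratio of -3.90 ± 0.88 and Tnnt2 one of -2.39 ± 0.30. Each of these was lower in the high class in 6 of 6 libraries.

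Regulators differed in how they tracked the split. Cdkn1a had a log2 ratio of -1.72 ± 0.37 and Cdkn1c one of -0.51 ± 0.15, both lower in 6 of 6 libraries. Myod1 had a ratio of -0.01 ± 0.39, lower in 3 libraries and higher in 3, and was present at 557 ± 199 CPM in the 0 class and 527 ± 75.8 CPM in the high class. Pax7 at 1.70 ± 0.45 and Msc at 2.86 ± 0.74 were higher in the high class in 6 of 6 libraries. Myog itself, a rule gene, had a ratio of -1.40 ± 0.15. The classes also differed in full depth, with medians of 10075.5 to 18901.5 UMIs in the 0 class and 12499 to 23080.5 in the high class, and doublet calls fell on 0% to 9.38% and 4.23% to 12.5% of cells. A UMI of Pdgfra or Lum was held by 6.67% to 46.7% and 10.8% to 62.5%. With doublet-called cells left out, or without the pair of libraries high in Hist1h1b, each ratio stayed within 1 SD of the value given.

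**Figure D2:**
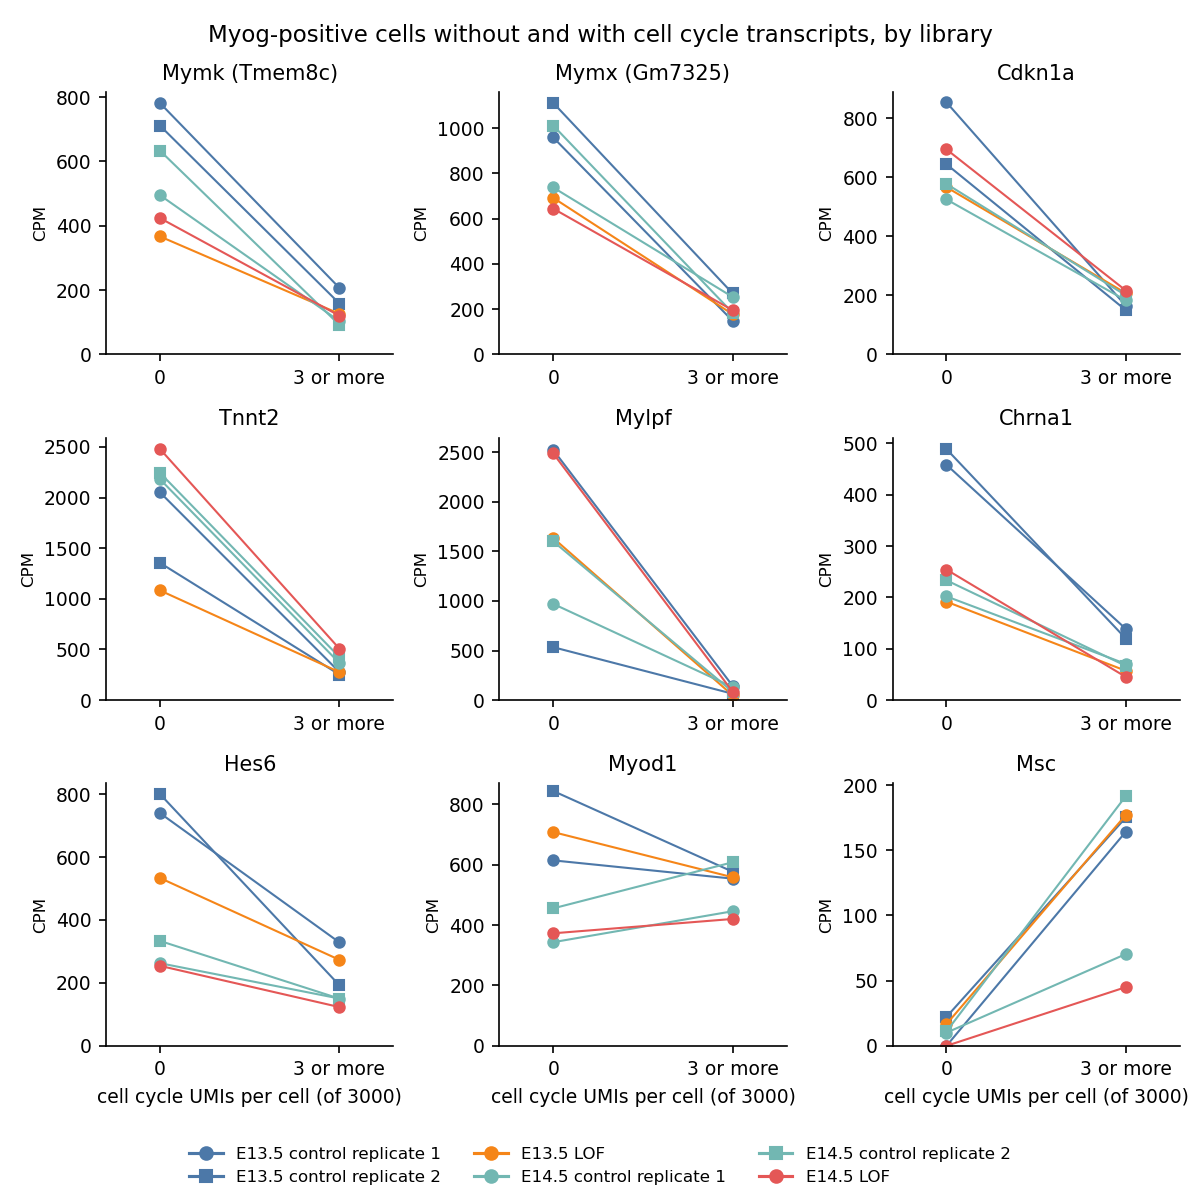
Levels of 9 genes in CPM in Myog-positive cells with 0 and with 3 or more cell cycle UMIs, at 3000 UMIs a cell, with 1 line per library. Tmem8c, Gm7325, Cdkn1a, Tnnt2, Mylpf, Chrna1 and Hes6 are lower in the cells with 3 or more in 6 of 6 libraries, Msc is higher in 6 of 6, and Myod1 is lower in 3 and higher in 3.

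The first comparison of the design asks how these cells differ between E13.5 and E14.5 in normal skin. With 2 control libraries a stage, 0 of 8766 tested genes (0.0%) passed edgeR's quasi-likelihood test at an adjusted p under 0.05, 997 had an unadjusted p under 0.05, DESeq2 called 68, and the smallest adjusted p in edgeR was 0.0756. The count depended on the libraries: without E14.5 control replicate 1 the test called 253 genes and without E14.5 control replicate 2 it called 1834, each with a lone library whose spread is assumed to equal that of the other stage. It called 44 and 30 genes without E13.5 control replicate 1 and 2. The values below are therefore differences that did not pass.

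Immediate early genes were among the named differences toward E14.5. Junb stood at 22.9 and 17.9 CPM at E13.5 and 137 and 174 CPM at E14.5, a log2 difference of 2.98 ± 0.31 (SE; edgeR adjusted p = 0.0756). Egr1 stood at 59.0 and 68.8 against 263 and 292 CPM (2.18 ± 0.27), and Fos at 39.2 and 62.6 against 259 and 406 CPM (2.78 ± 0.39; adjusted p = 0.0873). These transcription factors respond within minutes to growth factors and also to tissue dissociation. Of the 10 tested genes of the stress and dissociation list, 9 had both E14.5 controls above both E13.5 controls, against 16.1% of all tested genes. In fibroblasts of the same libraries Junb stood at 98.4 to 102 CPM at E13.5 and 333 to 536 CPM at E14.5, and whether dissociation differed between libraries was not tested. Igfbp7, a secreted binding protein, stood at 5.01 and 1.68 against 66.9 and 142.5 CPM (4.85 ± 0.58).

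Toward E13.5 the leading genes were Rprm, a cell cycle arrest gene induced by p53, at 48.6 and 61.5 against 7.49 and 3.61 CPM (-3.19 ± 0.42), and Igfbp2 at 393 and 476 against 106 and 105.5 CPM (-1.99 ± 0.26). The retinoic acid binding gene Crabp2 stood at 72.4 and 87.2 against 19 and 15.3 CPM (-2.16 ± 0.31), and Ckb, brain creatine kinase, at 206.5 and 255.5 against 69.9 and 57.7 CPM (-1.81 ± 0.26). The rule that named these genes required stages that did not overlap, so their lack of overlap is no result. It held for 25.8% of all tested genes in that direction.

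Within the sarcomere the isoforms lay in different directions between stages. The next genes were chosen after their values were seen, and their edgeR adjusted p ran from 0.128 to 0.167. Toward E14.5 were Tnnt2, with means of 542 ± 72.8 and 1156 ± 77.8 CPM (SD, n = 2; 1.16 ± 0.25), Tnni1 with 186 ± 65.8 and 459.8 ± 38.6 CPM (1.37 ± 0.29), and Cryab, the small heat shock protein that protects desmin and titin, with 164 ± 42.1 and 494 ± 106 CPM (1.66 ± 0.30). Toward E13.5 were Acta2, smooth muscle actin, with 1376 ± 90.9 and 558 ± 55.3 CPM (-1.25 ± 0.26), Tnnc1, slow troponin C, with 128 ± 27.0 and 31.5 ± 19 CPM (-1.96 ± 0.37), and Actn3 with 22.4 ± 1.64 and 3.75 ± 1.07 CPM (-2.59 ± 0.48). By list, 7 of 15 tested thin filament genes had both E14.5 controls above both E13.5 controls and 4 below, with a median log2 difference of 0.58 against 0.035 for all tested genes. The counts were 6 and 1 of 11 for the Z disc list, 3 and 0 of 7 for the thick filament and 5 and 1 of 8 for cell cycle exit. Of the 22 cell cycle genes 0 were above and 14 below, with a median of -0.40. Over all tested genes 16.1% were above and 25.8% below. With each library left out in turn the medians ran from 0.28 to 1.21 for the thin filament, 0.37 to 1.37 for the Z disc list, 0.17 to 1.17 for the thick filament, 0.39 to 0.56 for cell cycle exit and -0.55 to -0.38 for the cell cycle.

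**Figure D3:**
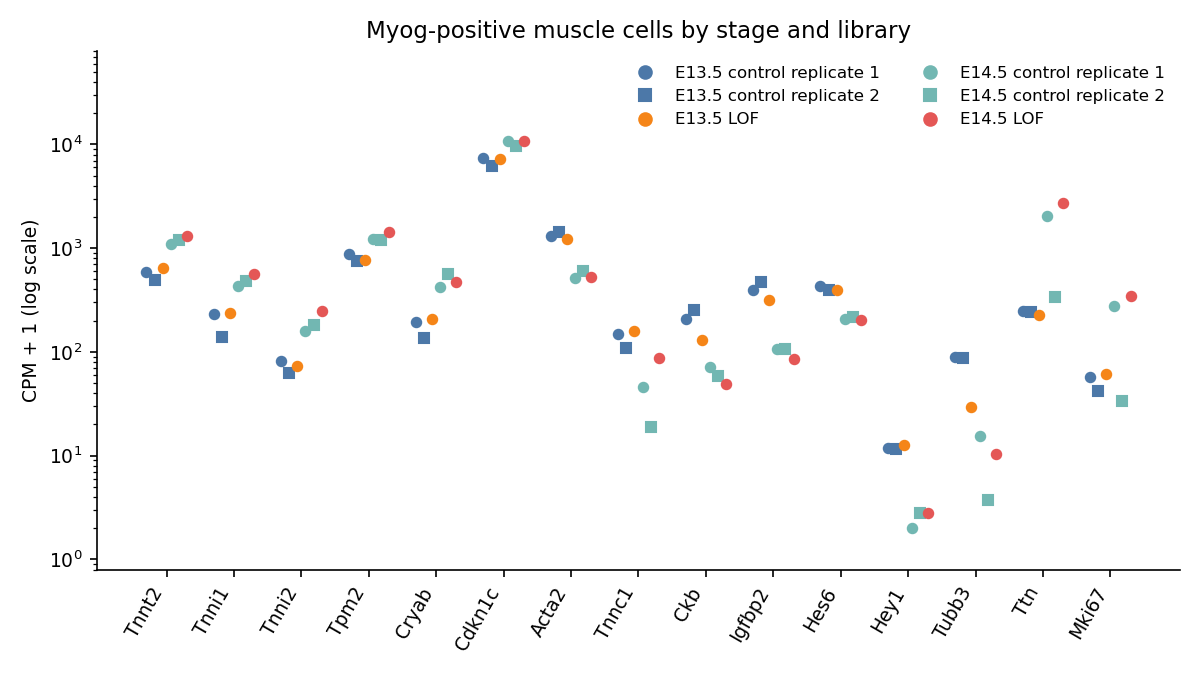
Levels of 15 genes in Myog-positive cells, as CPM + 1 on a log axis, with 1 point per library, colours for the groups and squares for replicate 2 of the controls. Tnnt2, Tnni1 and Cryab lie higher in the E14.5 libraries and Acta2, Igfbp2 and Hes6 lower, while Ttn and Mki67 are high in E14.5 control replicate 1 and the E14.5 LOF library alone; 0 of these stage differences passed the test.

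A paired fit inside each library asked whether the Myog-positive cells differed between stages in another way than the progenitors of the same libraries. Of 9424 genes, 190 (2.02%) passed edgeR's test of the class by stage term, 86 (0.913%) with the larger difference toward E14.5 in Myog-positive cells and 104 (1.1%) the other way. Among 37 of these that were picked by the naming rule or belong to a list, 10 kept their call with each library left out in turn and 27 lost it with at least 1 library left out, most often without E13.5 control replicate 1, whose absence left 72 genes called. Without cells that held Pdgfra or Lum, 77 genes were called, and DESeq2 called 32 of the 1144 genes to which it gave an adjusted p.

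The stage differences of Myod1 and Tnnt1 were unlike between the classes. Myod1 was lower at E14.5 in Myog-positive cells and higher in progenitors, while Tnnt1 was lower at E14.5 in both. Myod1 stood at 594 and 624 CPM at E13.5 and 402 and 503 CPM at E14.5 in Myog-positive cells, and at 68.4 and 51.6 against 93.2 and 118 CPM in progenitors. The difference of the log2 stage differences was -1.08 ± 0.19 (SE; edgeR adjusted p = 9.5e-05). Tnnt1 stood at 1151 and 1257 against 1002 and 838 CPM in Myog-positive cells and at 297 and 383 against 171 and 134 CPM in progenitors, a difference of 0.79 ± 0.11 (adjusted p = 2.3e-07). Both kept their calls with each library left out. Of the 17 myogenic factors tested, Myod1 alone passed.

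Other calls kept with each library left out came from several kinds of gene. Tagln (transgelin), an actin-binding protein of smooth muscle and early muscle, stood at 37.3 and 26.3 against 12.5 and 4.51 CPM in Myog-positive cells and at 52.8 and 55.9 against 124 and 146 CPM in progenitors, a difference of -3.03 ± 0.33 (adjusted p = 1.1e-09). Crip2, a LIM domain protein, stood at 22.5 and 24.0 against 47.0 and 41.5 CPM in Myog-positive cells while progenitors went from 11.3 and 25.8 to 177 and 179 CPM (-2.47 ± 0.33; adjusted p = 1.1e-07). S100a6, Capn2 (calpain 2) and the cytosolic creatine kinase Ckb differed by -1.77 ± 0.34, -1.52 ± 0.27 and -1.48 ± 0.26. Nnat, an imprinted membrane protein, stood at 364 and 446 against 209.8 and 159.7 CPM in Myog-positive cells and at 273 and 389 against 313 and 299 CPM in progenitors (-0.95 ± 0.15; adjusted p = 5.3e-06). Npepl1, an aminopeptidase, differed by 1.82 ± 0.33 (adjusted p = 0.00016), with progenitor values of 102 and 70.9 against 42.0 and 36.2 CPM. These 7 genes kept their calls with each library left out. The adhesion gene Jam3 differed by 0.95 and Des by -0.74, and Jam3 lost its call without E13.5 control replicate 1 (0.89; adjusted p = 0.22 by edgeR). With E13.5 control replicate 2 left out Des was at -0.60, and with E14.5 control replicate 1 left out at -0.62, neither of them called.

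Of the 22 cell cycle genes 5 passed, all toward a lower E14.5 level in Myog-positive cells relative to progenitors, and 0 the other way: Ccnb1 (-1.09 ± 0.22), Plk1 (-1.03 ± 0.27), Aurkb (-1.08 ± 0.25), Ube2c (-0.69 ± 0.15) and Nusap1 (-0.91 ± 0.21), with edgeR adjusted p of 0.0054 to 0.0226. The list's median was -0.44 against 0.010 over all tested genes. Without E13.5 control replicate 1 the same 5 differences were -0.93, -0.71, -1.03, -0.65 and -0.87 with adjusted p of 0.056 to 0.63, none of them called. Without E14.5 control replicate 2, Plk1, Ube2c and Nusap1 also lost their calls, at -0.88, -0.44 and -0.72. All 5 encode proteins of mitosis. Without cells that held Pdgfra or Lum, Ccnb1, Plk1, Ube2c and Nusap1 missed the threshold too, at -1.26, -0.92, -0.84 and -0.90.

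**Figure D4:**
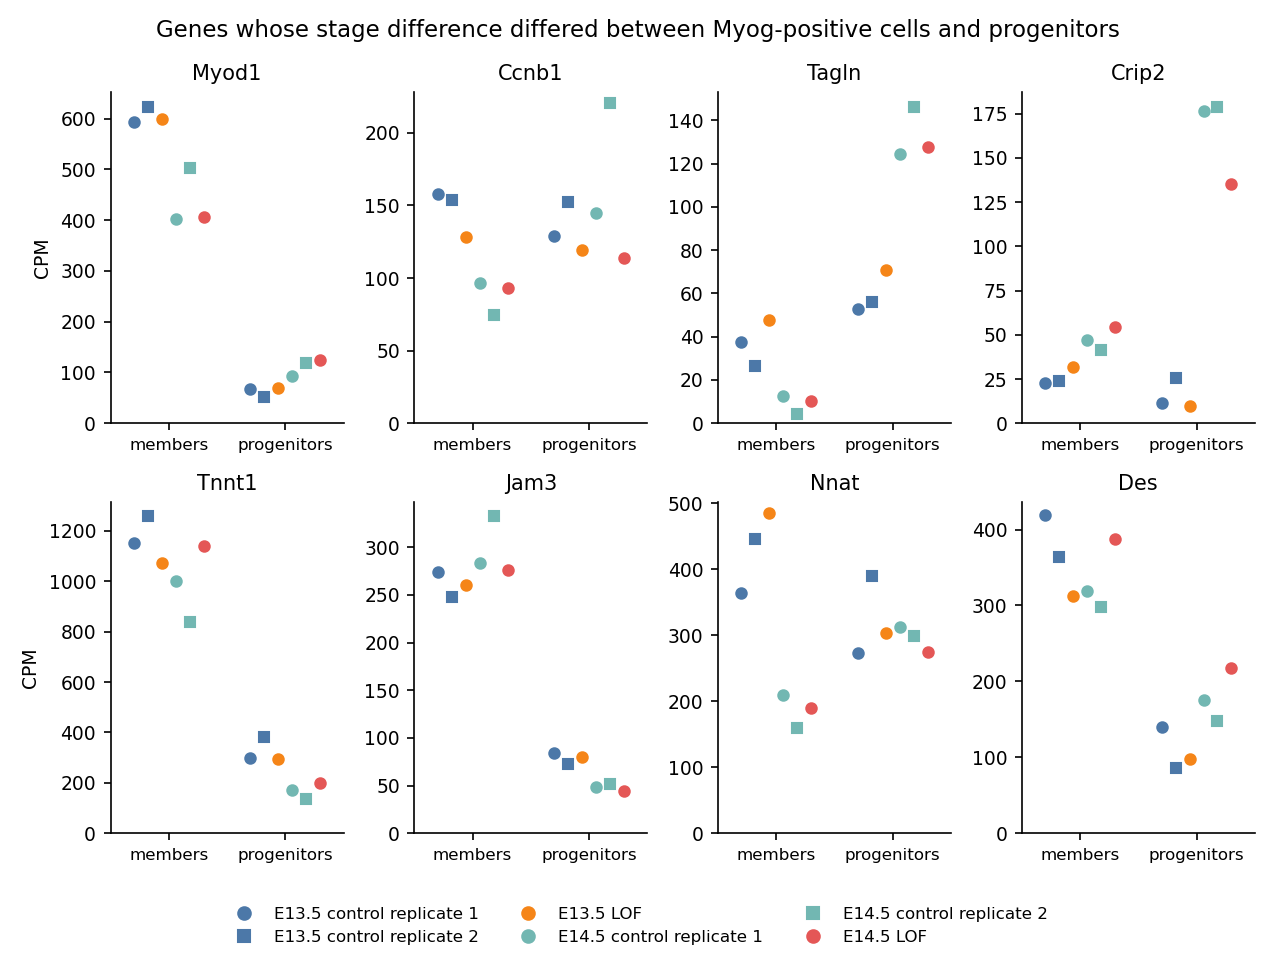
Levels of 8 genes in CPM in Myog-positive cells (marked members) and progenitors, with 1 point per library; the LOF libraries are drawn but were not part of the stage test. Tagln in controls is lower at E14.5 in Myog-positive cells (12.5 and 4.51 CPM) and higher in progenitors (124 and 146 CPM).

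The second comparison asks whether the Myog-positive cells differ after loss of beta-catenin in Pdgfra-expressing cells. The targeted gene gives no check on the label, since the counts are 3' tags and no file used here places them against the floxed part. Ctnnb1 stood at 168.5 and 161 CPM in both E13.5 controls, 140.4 and 113 CPM in both E14.5 controls, and 167 and 122 CPM in the LOF libraries, a log2 difference of -0.05 ± 0.17. The driver gene was nearly absent, with Pdgfra at 1.68 to 8.75 CPM in Myog-positive cells. The reporter eGFP stood at 4.38, 5.03, 3.50 and 4.51 CPM in the controls and 20.6 and 13.7 CPM in the LOF libraries, a log2 difference of 2.0 ± 0.31 (edgeR adjusted p = 0.84). In fibroblasts of the same libraries eGFP was at 2.90, 129, 5.39 and 96.2 CPM in the controls and 366.5 and 319 CPM in LOF. Reporter transcripts were thus present in libraries labelled WT, where they reached 129 CPM in fibroblasts of E13.5 control replicate 2. Whether free RNA from fibroblasts supplied the eGFP counts in muscle cells was not tested.

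No gene passed between genotypes. Of 9690 genes tested over all 6 libraries with stage as a covariate, 0 (0.0%) passed edgeR's test and 171 had an unadjusted p under 0.05; DESeq2 also called 0, and the stage by genotype term called 0 with 77 at an unadjusted p under 0.05. Without the pair of libraries high in Hist1h1b, which leaves 1 control at E14.5 and the LOF library of E13.5 only, 9 genes passed, and 2 passed without E14.5 control replicate 2. LOF above both controls at both stages was seen for 12.1% of genes and LOF below for 9.51%.

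No sarcomere gene passed in the fit over 9690 genes, and the lists are described by counts. Of 7 tested thick filament genes 4 had LOF above both controls at both stages and 0 below, of 15 thin filament genes 4 and 0, and of 16 Z disc genes 5 and 0. Their median log2 differences were 0.72, 0.26 and 0.51, against 0.0068 over all tested genes. Without the E14.5 LOF library the medians were 0.38, -0.026 and 0.23, and without cells that held Pdgfra or Lum they were 0.12, -0.058 and 0.25, so the direction of the thin filament list turned in both. Acta1, skeletal alpha-actin, stood at 138 and 29.1 CPM in both E13.5 controls, 105 and 134 CPM in both E14.5 controls, and 258 and 266 CPM in LOF (1.36 ± 0.49). Tnnc1 stood at 147 and 109, 45.0 and 18.0, and 159 and 86.0 CPM (0.82 ± 0.32). Without the E14.5 LOF library Acta1 was at 1.62 ± 0.79 and Tnnc1 at 0.30 ± 0.40, and without cells that held Pdgfra or Lum Tnnc1 was at 0.18 ± 0.38. On the other side were the replication gene Mcm5, at 71.8 and 59.8, 41.5 and 46.0, and 41.4 and 27.1 CPM (-0.71 ± 0.22), and Ckb, at 206.5 and 255.5, 69.9 and 57.7, and 129 and 48.4 CPM (-0.67 ± 0.21). The adjusted p of each was 0.999 in the fit over 9690 genes. With no filter on genes Acta1 passed edgeR's test at 1.35 ± 0.22 (adjusted p = 2.1e-06), and Tnnc1 did not. Acta1 also passed with a batch term that no label gives, which is described with the processing below. The E14.5 LOF library belongs to the pair with high Ttn and Neb, so for sarcomere genes the library and the genotype cannot be told apart at that stage.

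Fibroblasts express the driver, and a fit over both classes asked whether the genotype difference in Myog-positive cells departed from that in fibroblasts. Of 12632 genes, 233 (1.84%) passed edgeR's test of the class by genotype term, 145 (1.15%) with the difference more positive in Myog-positive cells and 88 (0.697%) more negative. Without the E13.5 LOF library 115 passed, without the pair high in Hist1h1b 177, and by DESeq2 84 of the 6946 genes to which it gave an adjusted p. Among 42 of these in the lists or named by rule, 14 kept their call with each library left out in turn. The fibroblasts taken alone passed for 0 of 14350 genes, with 1193 at an unadjusted p under 0.05.

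Targets of Wnt signalling were one group among the calls. Of 10 tested targets 4 passed, all with the LOF difference more positive in Myog-positive cells, 0 the other way, and the median of the list was 1.27 against 0.0026 over all tested genes. Lef1, a nuclear partner of beta-catenin and itself a target, stood at 37.8, 47.0, 38.5 and 27.1 CPM in control Myog-positive cells and 27.0 and 36.1 CPM in LOF. In fibroblasts it stood at 29.5, 31.9, 66.1 and 45.1 CPM in controls and 4.35 and 23.4 CPM in LOF. The difference between classes was 1.79 ± 0.20 (SE; edgeR adjusted p = 5.5e-08) and was called with each library left out. The feedback inhibitor Nkd1 stood at 38.2, 35.2, 31.5 and 41.5 against 36.0 and 27.1 CPM in Myog-positive cells and at 133, 143, 159 and 159.6 against 33.1 and 68.6 CPM in fibroblasts (1.51 ± 0.20). Axin2, another feedback inhibitor, differed by 1.54 ± 0.29, and the secreted inhibitor Wif1 by 1.23 ± 0.31. Without the E13.5 LOF library these 3 fell to 0.86, 1.27 and 1.17 with adjusted p of 0.11, 0.24 and 0.42. Wif1 also lost its call without E14.5 control replicate 1 (0.97) and without the E14.5 LOF library (1.28).

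Cell cycle genes formed the next group, with 8 of 22 passing in the positive direction, 0 in the other, and a median of 0.59. Birc5 (survivin), needed for cytokinesis, stood at 224, 249, 173 and 194 against 208 and 182 CPM in Myog-positive cells and at 262, 369, 312 and 339.9 against 175 and 196 CPM in fibroblasts (0.68 ± 0.11; adjusted p = 0.00018). Ccna2 (cyclin A2) differed by 0.78 ± 0.13 and Nusap1, a spindle protein, by 1.02 ± 0.15. In each of these 3 genes the fibroblast level was below all controls of its stage in both LOF libraries, and the 3 calls were kept with each library left out. Of the other 5, Mki67 and Aurkb lost their calls without the E14.5 LOF library (0.66 and 0.73), Top2a without the E13.5 LOF library (0.59), and Cenpf and Ube2c without E14.5 control replicate 2 (0.88 and 0.66).

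Single genes with calls kept in each fit lay on both sides. Bex1 was even in Myog-positive cells, at 191.7 to 225 CPM, while in fibroblasts it stood at 155 and 178, 53.2 and 47.4, and 66.5 and 28.8 CPM (1.18 ± 0.12; adjusted p = 1.9e-08). Tcf7l2, a nuclear partner of beta-catenin, was at 42.1 to 54.1 CPM in Myog-positive cells and at 60.8 to 77.5 CPM in control and 182 and 136 CPM in LOF fibroblasts (-1.18 ± 0.15; adjusted p = 1.6e-06). Lpar4, a lysophosphatidic acid receptor, was at 134 to 172 CPM in Myog-positive cells and went from 62.6 to 92.2 CPM in control to 144 and 144 CPM in LOF fibroblasts (-1.01 ± 0.13). Itm2a, a membrane protein of muscle and cartilage precursors, stood at 2034, 1777, 1251 and 1714 against 1941 and 1197 CPM in Myog-positive cells and at 889.5, 621, 416.5 and 697 against 1637 and 951 CPM in fibroblasts (-1.11 ± 0.11). Des differed by -1.42 ± 0.18, from 4.36 to 11.6 CPM in control and 25.9 and 11 CPM in LOF fibroblasts, against 299 to 419.5 CPM in Myog-positive cells. Cdkn1c differed by -0.60 ± 0.09 and lost its call without the E13.5 LOF library (-0.55; edgeR adjusted p = 0.11). Of the 5 markers of these cells, 3 passed edgeR's test in the negative direction (Tnnt1, Des and Cdh15) and 0 in the other. Cdh15 differed by -1.08 ± 0.22, and by -0.93 without the E13.5 LOF library. Whether the traces of these 3 genes in fibroblasts were free RNA was not tested.

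**Figure D5:**
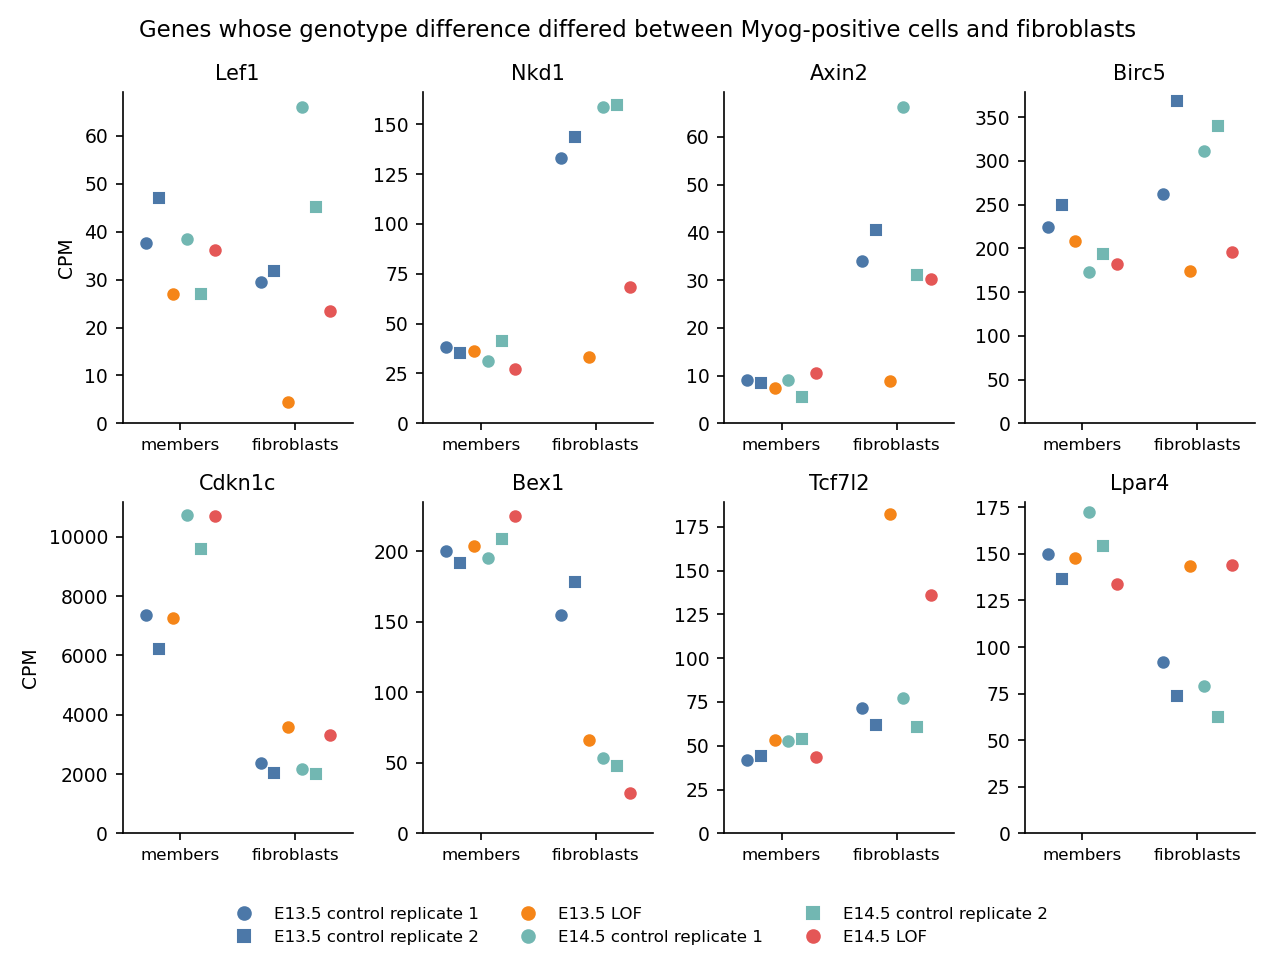
Levels of 8 genes in CPM in Myog-positive cells (marked members) and fibroblasts, with 1 point per library. Lef1 and Nkd1 in fibroblasts are lower in both LOF libraries than in the 4 controls, and Tcf7l2 and Lpar4 are higher.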

How the data were processed

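The deposited values were raw UMI counts per gene and cell barcode for each library. Per the submitters' processing notes the authors used Cell Ranger and Seurat with the mm10 (GRCm38) build, and versions are not given in the sources used here. The members and the gene lists were chosen with earlier results of these data known. UMI counts were summed per library and cell class, scaled to CPM, and tested with edgeR 4.0.16 (quasi-likelihood, TMM scaling, filterByExpr, robust fit) in R 4.3.3, with Benjamini-Hochberg adjustment over all tested genes and a threshold of 0.05. DESeq2 1.42.0 was an alternative. Fibroblasts had at least 1 UMI of Pdgfra, at least 10 of Col1a1 and 0 of Myog, and keratinocytes at least 20 UMIs of Krt5 and Krt14. Class by stage and class by genotype fits held each library as a block, since both classes came from the same libraries. Doublets were called with the scrublet method in scanpy 1.11.5 at 0.8% per 1000 cells and left in, with an alternative without them. The fits were tested on simulated data with 200 changed genes and 1 common spread for all genes. The stage fit recovered 13% of 2-fold and 75% of 4-fold changes, and the genotype fit 48% and 99%. The class by stage fit recovered 49% and 91%, and the class by genotype fit 55% and 84%. False calls numbered 7, 8, 8 and 5 in that order. Most 2-fold stage differences would thus be missed. Nothing in the labels says that a replicate number marks a shared litter, batch or day, so the numbers were not used as pairs.

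Named genes were the markers, rule genes, reporters, Ctnnb1 and list members. In each comparison up to 10 genes in each direction with the largest log2 differences were added, among those with mean log2 CPM of at least 5, non-overlapping libraries and a level in Myog-positive cells of at least 1 part in 5 of that in other classes. Other settings tried were scaling, filtering, robust fitting, the thresholds of the cell rule, equal depth, exclusion of cells and each library left out.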

Additional observations from a re-analysis of the deposited data

Results flagged for a closer look

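The stage difference of 190 genes in Myog-positive cells departed from that in progenitors by the test of the class by stage term, and the genotype difference of 233 genes departed from that in fibroblasts by the test of the class by genotype term. Tagln lay in opposite directions in the 2 classes between stages, at a log2 difference of -1.79 in Myog-positive cells (unadjusted p = 0.0039) and 1.32 in progenitors (unadjusted p = 0.0015), neither passing the edgeR adjustment alone. The difference between classes was -3.03, with an edgeR adjusted p of 1.1e-09.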

How the results depend on the processing

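The count of 0 genes between stages became 68 with DESeq2, 1 with DESeq2 size factors and 376 with no filter. It was 6 with the stricter cell rule, 6 without doublet calls and 204 with the replicate block. With a library left out, which leaves a lone library at a stage, it was 30 to 1834. A batch term of 3 levels, taken from earlier results of these data, gave 370 of 10291 genes in a fit over all 6 libraries. No label gives such a batch. Its levels were the replicate 2 controls, E13.5 control replicate 1 with the E13.5 LOF library, and E14.5 control replicate 1 with the E14.5 LOF library. That fit is not the comparison of the controls alone with a covariate added. Its stage term rests on the replicate 2 controls, 1 library a stage, so the 370 cannot be set against the 0. Same-numbered libraries had deviations correlated at r = 0.239 and rho = 0.215 across 8766 genes, which are not independent, and nothing in the labels pairs them. The count of 0 between genotypes was 38 with no filter, 12 with that batch term, 9 without both libraries high in Hist1h1b, 0 with the replicate block and 0 to 2 with a library left out. Acta1 was among the calls with no filter (1.35 ± 0.22; edgeR adjusted p = 2.1e-06) and with that batch term (1.14 ± 0.12; edgeR adjusted p = 6.6e-07). It passed in no other setting tried, and Tnnc1 passed in neither of these. The 190 genes by class and stage became 32 with DESeq2, 77 without cells holding Pdgfra or Lum and 72 to 151 with a library left out. The 233 genes by class and genotype became 84 with DESeq2 and 115 to 306 with a library left out. The share of 2.47% was 3.05% with the looser rule, 2.02% with the stricter rule, 1.99% at equal depth and 1.71% without cells holding Pdgfra or Lum. No named gene of the tests changed sign, but the genotype median of the thin filament list did (0.26 to -0.026 without the E14.5 LOF library), as did medians over all tested genes (between stages 0.035 to -0.027 without E14.5 control replicate 1). The causes were not tested. With 1 LOF library a stage, a difference between genotypes within a stage rests on a single library.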
